A study of Sus scrofa with 14 samples.

Results

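The glycosyltransferase genes described are 5 of the 2389 genes named on an array of pig meniscus RNA: GCNT7, ABO, FUT1, FUT2 and GGTA1. Their 9 probes, of 43603 on the array, were all those whose RefSeq accession is a transcript of one of these 5 genes. GCNT7 was chosen by its scaled difference between the groups, the largest increase of the 2258 tested named genes when each is read by its probe of highest mean signal, and the other genes were added by function. GCNT7 and ABO had 1 probe each, FUT1 and GGTA1 had 2 each and FUT2 had 3. The RefSeq table lists GGTA1 as GGTA1P, with GGTA1 as its synonym and a protein-coding biotype. Tissue came from 14 healthy adult male Wuzhishan pigs aged 6 to 7 months, allocated at random. In the osteoarthritis group (OA, 7 pigs) meniscus was collected 24 weeks after an operation on the anterior cruciate ligament, and in the sham group (7 pigs) 24 weeks after a sham operation. Each animal gave total RNA for 1 single-colour array, and the labels do not say what the ligament surgery consisted of or from which part of the meniscus the tissue came.

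These enzymes add single sugars to the ends and branches of glycan chains in the Golgi. The GCNT family starts branches with N-acetylglucosamine, and GCNT7 is placed in it by sequence, with no well-established substrate of its own. FUT1 and FUT2 add fucose to make the H antigen, FUT1 chiefly in red cell and vascular lineages and FUT2, the secretor enzyme, in secretory epithelia. ABO adds a further sugar to H to make blood group antigens, of which pigs carry the A antigen. GGTA1 instead caps chains with alpha-gal, the xenoantigen of pig tissue; its human counterpart is a pseudogene.

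The arrays differed in brightness between the groups, and this touches every value below. The raw 75th percentile of signal was 156 to 492 on the OA arrays and 418 to 622 on the sham arrays (difference of -1.07 on the log2 scale, two-sided exact permutation test, adjusted p = 0.0035, n = 7 per group). Probes rated well above background made up 67.9% to 89.3% of OA arrays and 89.7% to 95.2% of sham arrays (exact permutation adjusted p = 0.0012, n = 7 per group). Arrays that share a scan time were taken as 1 slide, and no slide held both groups. No scan day held both groups either. Slide, scan day and surgery therefore cannot be told apart. Both permutation tests treated the arrays as exchangeable, so their p-values take no account of slide or scan day. On slide 5, OA 6 was dimmer than every sham array, at 404, and OA 7 lay within the sham range, at 492. OA 1 to OA 5, on slides 3 and 4, were dimmer still, at 156 to 250. ACAN, DCN, HAPLN1 and SOX9, which mark the chondrocyte-like cells and matrix of meniscus, were well above background on all 14 arrays. To adjust for brightness, signals were divided by each array's 75th percentile, and the result is called the scaled level, on the log2 scale. This did not remove every trace of it. The median change in scaled level, OA minus sham, ran from -0.36 in the dimmest decile of tested probes to 0.095 in the brightest.

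GCNT7 stood higher on all 7 OA arrays than on any sham array once scaled. Its signal, in arbitrary units, was 19.0 at the lowest, 28.3 at the median and 68.7 at the highest on OA arrays, against 12.7, 18.3 and 41.1 on sham arrays. These unscaled values overlap: only OA 6 and OA 7, at 53.3 and 68.7, lay above the highest sham signal, 41.1 on sham 4. The scaled level was -3.12, -3.03 and -2.84 at the lowest, median and highest of the OA arrays, against -5.09, -4.73 and -3.89 of the sham arrays. Scaled levels did not overlap, and a gap of 0.76 separated the lowest OA array from the highest sham array. Read another way, the GCNT7 spot reached 11.5% to 14.0% of the array's 75th percentile in OA and 2.94% to 6.76% in sham.

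The mean scaled level of GCNT7 was -2.98 ± 0.12 in OA and -4.64 ± 0.45 in sham (SD, n = 7 each). That is a difference of 1.66 on the log2 scale, or 3.16-fold. This difference is what chose the gene, so it is given without a test. The next increases among named genes, each read by its brightest probe, were LOC100156694 at 1.58 and SOCS2 at 1.48. Dimmer probes of 3 named genes stood above GCNT7: one of CES1 at 2.06, one of CDH1 at 1.75 and one of C7H6orf15 at 1.72. Over all 38818 tested probes, named or not, 24 had a larger increase than GCNT7. Scaled levels that all lay higher on OA than on sham arrays were found for 612 probes, 1.58% of those tested. In bulk tissue, a change in the share of a cell type and a change in RNA per cell cannot be told apart.

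**Figure D1:**
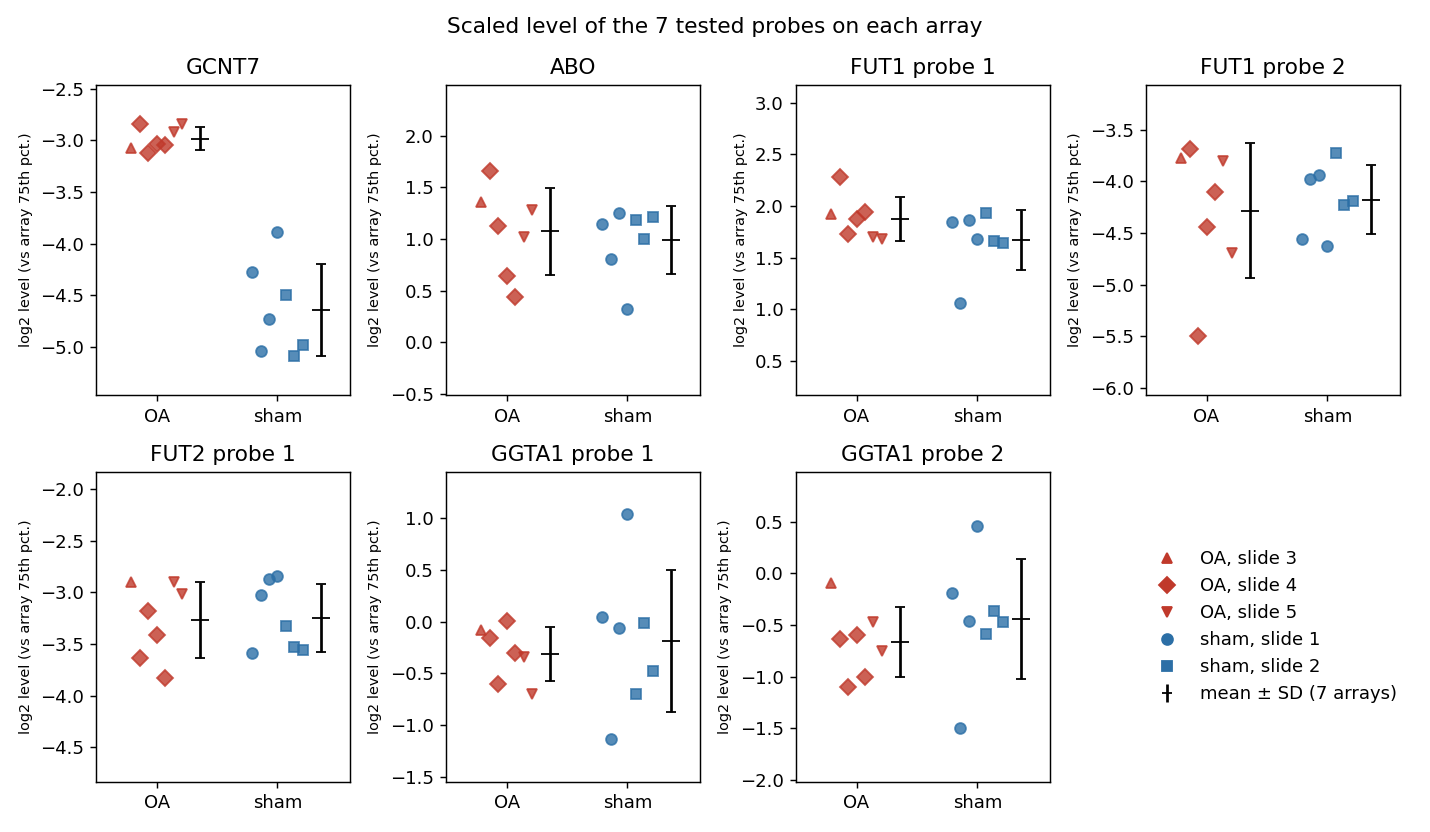
Scaled level (log2, relative to the array's 75th percentile) of the 7 tested probes on each of the 7 OA and 7 sham arrays, with the slide as marker shape and the mean ± SD beside each group; every panel has the same height in log2 units. The OA arrays sit between -3.12 and -2.84 for GCNT7, above all sham arrays, and the groups overlap in the other 6 panels.

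GCNT7 was also read slide by slide, as a description of the values that chose it. Within OA it stood at -3.07 on the single array of slide 3, at a mean of -3.01 on the 4 arrays of slide 4 and at -2.88 on the 2 arrays of slide 5, of which slides 3 and 4 were of like brightness and slide 5 brighter. Among sham arrays it averaged -4.48 on slide 1 and -4.86 on slide 2, with sham 4 the highest and sham 6 the lowest. The SD over arrays was thus smaller in OA than in sham, a difference that was not tested.

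The GCNT7 probe is dim, with a geometric mean signal of 26.2 against a median of 86.6 over tested probes. Still, it was well above background on 7 of 7 OA and 7 of 7 sham arrays. Its signal was 11.3 to 35.3 times the 95th percentile of the array's negative control spots in OA and 10.4 to 32.5 times in sham. The dimmest spots did not scale with array brightness: the median negative control spot had a scaled level of -7.27 ± 0.65 in OA and -8.65 ± 0.19 in sham (SD, n = 7 each). For the E1A control spots, whose median raw signal of 2.97 to 12.6 in OA and 7.86 to 16.6 in sham was below that of GCNT7 on every array, the scaled level was -5.56 ± 0.16 in OA and -5.63 ± 0.27 in sham. The tested probes of mean signal nearest GCNT7 (decile 3 of 10) had a median change of -0.12. The part of brightness in the GCNT7 difference was not tested further than this and the alternatives that follow.

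**Figure D2:**
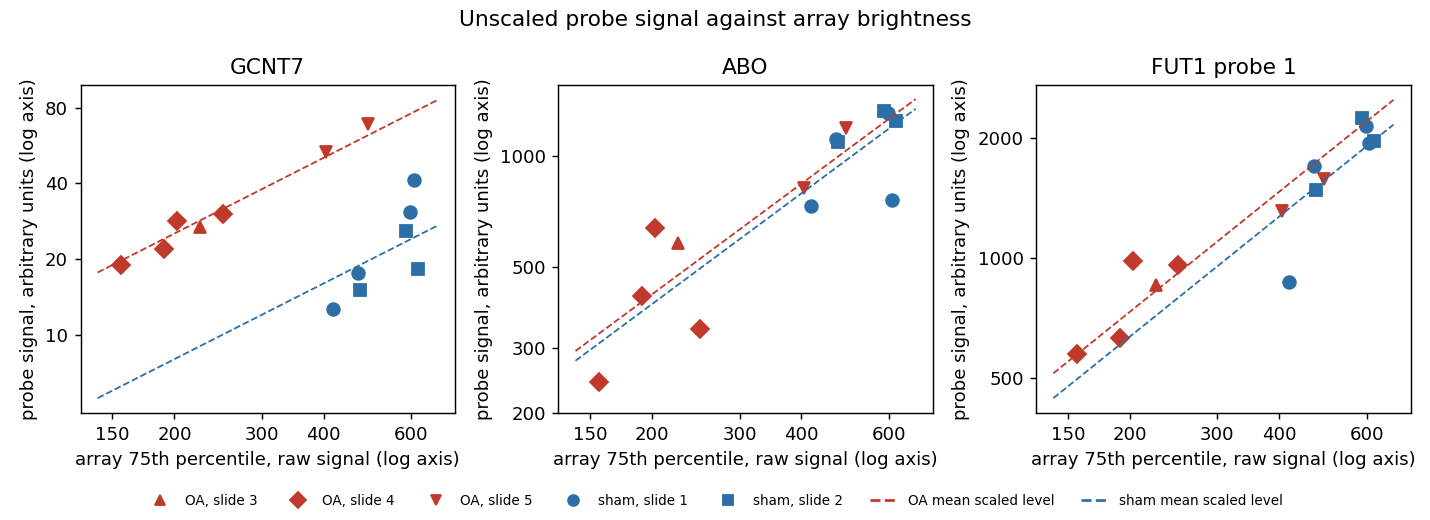
Unscaled signal of GCNT7, ABO and FUT1 probe 1 (arbitrary units) against the raw 75th percentile of each array, both on log axes; marker shapes give slides, and each dashed line is the mean scaled level of a group. The lines are drawn from the group means, so the 1.66 (log2) between the GCNT7 lines is the difference that chose the gene. Those of ABO and FUT1 probe 1 are 0.088 and 0.21 apart. Sham arrays scatter about the GCNT7 line: sham 4 and sham 6, with 75th percentiles of 608 and 622, had signals of 41.1 and 18.3.

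With no scaling between arrays, an alternative chosen after seeing the data, GCNT7 stood 0.59 ± 0.35 higher in OA (SE, log2), while the median of all tested probes was -1.12. Relative to that median the difference was 1.71 with or without scaling, as follows from subtracting 1 constant per array. Normexp background correction gave 1.15 for GCNT7 against a median of 0.34, or 0.81 above the median. Other dim probes also stood above that median under normexp. FUT1 probe 2 (geometric mean signal 19.6) was at 0.71, ST3GAL1 (24.3) at 0.78 and FUT2 probe 1 (38.5) at 0.56. A median over probes of like signal was not taken for normexp. Without slides 3 and 4, a second setting added after the values were seen, the fit kept only OA 6 and OA 7 in the OA group and GCNT7 stood at 1.76. With array brightness as a covariate, chosen likewise, the value was 1.91.

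None of the 4 blood-group and alpha-gal genes passed the threshold. Of their 8 probes, 6 passed the brightness filter, which asked for 7 or more arrays well above background. By limma 0 of the 6 were called at an adjusted p of 0.05 (Benjamini-Hochberg over all tested probes), against 3.73% of all tested probes, 2.89% called higher and 0.848% called lower. Their fitted differences lay between -0.22 and 0.21 on the log2 scale, and 0 of the 6 had an unadjusted p under 0.05.

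FUT1, which makes the H antigen, was read by a bright and a dim probe that stood on different sides of 0. On probe 1 the signal was 573, 957 and 1576 at the lowest, median and highest of the OA arrays, against 871, 1945 and 2242 of the sham arrays. Its scaled level was 1.68, 1.88 and 2.28 in OA and 1.06, 1.68 and 1.94 in sham. All 7 OA arrays lay above the sham mean, but 2 of them lay above the highest sham array. The change was 0.21 ± 0.17 (SE, log2, limma adjusted p = 0.52), with a 95% interval of 0.91-fold to 1.47-fold. With only OA 6 and OA 7 in the OA group the change was 0.019. On probe 2 the signal was 4.20, 15.8 and 29.0 in OA and 24.6, 26.6 and 44.3 in sham, and OA 3 and OA 4 were not well above background. The change there was -0.11 ± 0.26 (limma adjusted p = 0.86), with a 95% interval of 0.63-fold to 1.37-fold. After subtraction of the group means the probes had a Pearson r of 0.27 over 14 arrays.

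FUT2 was measured by 1 of its 3 probes. Probe 1 had a signal of 14.7, 21.1 and 60.9 at the lowest, median and highest of the OA arrays, against 40.4, 53.8 and 85.0 of the sham arrays. The scaled levels overlapped almost fully, at -3.82 to -2.89 in OA and -3.59 to -2.84 in sham. The change was -0.016 ± 0.199 (SE, log2, limma adjusted p = 0.97), with a 95% interval of 0.74-fold to 1.32-fold. Within OA the 4 arrays of slide 4 averaged -3.51, against -2.89 on slide 3 and -2.96 on slide 5. Within sham, slide 1 averaged -3.08 and slide 2 -3.47, so that slides of one group lay further apart than the group means. Probes 2 and 3 were well above background on 0 of 7 OA and 2 of 7 sham arrays each, with signals of 1.28 to 8.26 and 1.35 to 2.07 in OA and of 1.39 to 10.7 and 1.41 to 11.4 in sham. They were left out of the test, and no fold can be given for them.

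The enzyme that extends H, ABO, had 1 probe, well above background on every array. Its signal was 243, 580 and 1197 in OA (lowest, median and highest) and 731, 1115 and 1331 in sham. Scaling brought the groups together, at 0.44, 1.13 and 1.66 in OA and 0.32, 1.14 and 1.25 in sham. The change was 0.088 ± 0.210 (SE, log2, limma adjusted p = 0.85), with a 95% interval of 0.78-fold to 1.45-fold. The highest and lowest OA arrays, OA 2 at 1.66 and OA 5 at 0.44, both lay on slide 4, and sham 4 was the lowest of all at 0.32. The labels do not give the animals' blood groups, which were not analysed here.

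GGTA1, the alpha-gal enzyme, was read by 2 probes that moved together over the animals (Pearson r of 0.86 over 14 arrays after subtraction of the group means). On probe 1 the signal was 126, 202 and 319 at the lowest, median and highest of the OA arrays, against 190, 450 and 1249 of the sham arrays. Both the highest and the lowest scaled level were in sham, at 1.04 on sham 4 and -1.13 on sham 2, while OA ran from -0.70 to 0.011. The same sham arrays were the extremes of probe 2, at 0.46 and -1.49, with OA between -1.10 and -0.09. The SD was 0.26 in OA and 0.69 in sham on probe 1, and 0.34 in OA and 0.58 in sham on probe 2. The changes were -0.13 ± 0.27 and -0.22 ± 0.25 (SE, log2, limma adjusted p = 0.83 and 0.66), with 95% intervals of 0.62-fold to 1.35-fold and 0.60-fold to 1.23-fold. Without sham 4 the change of probe 1 turned to 0.078. Sham 4 also had the highest GCNT7 level in sham and sham 2 one of the lowest. Sham 6, the lowest for GCNT7, lay above the sham mean on both GGTA1 probes, at -0.0073 and -0.37 against -0.19 and -0.44. Over 14 arrays the deviations of GCNT7 from its group means had a Pearson r of 0.63 with those of either GGTA1 probe. This r was not taken without sham 4. The same r was 0.38 with FUT1 probe 1, 0.21 with FUT2 probe 1, -0.16 with FUT1 probe 2 and -0.21 with ABO.

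Scaling set the sign of 4 of these 6 small changes. Quantile normalization turned FUT1 probe 2 and FUT2 probe 1 slightly positive, at 0.010 and 0.029. Normexp correction put them at 0.71 and 0.56 (limma adjusted p = 0.0020 and 0.0030), or 0.37 and 0.22 above the shifted median, these 2 being the dimmest of the 6. Under normexp 17596 of all 38809 tested probes were called higher and 776 lower, so these 2 calls are not particular to FUT1 or FUT2. Normexp left ABO at -0.027 and FUT1 probe 1 at -0.036. Both GGTA1 probes stayed negative under each scaling run, at -0.11 and -0.054 under normexp. With no scaling all 6 were lower in OA, by 0.87 to 1.29 (adjusted p of 0.0068 to 0.018), as were most probes on the arrays.

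**Figure D3:**
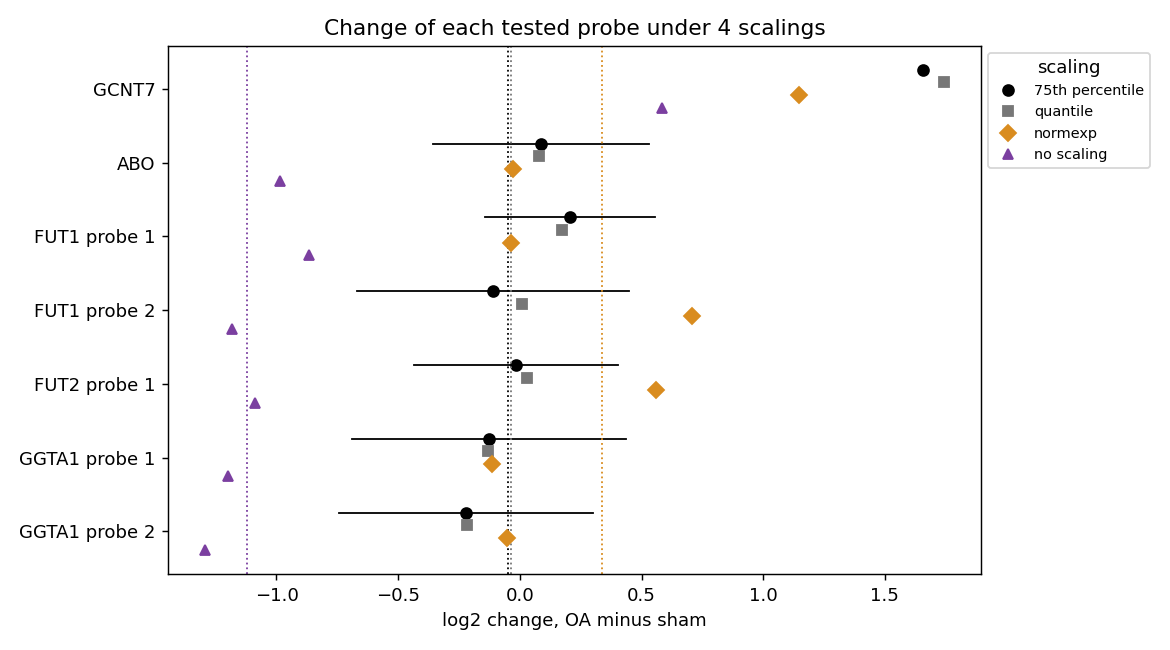
Log2 change, OA minus sham, of the 7 tested probes with 75th percentile scaling, quantile normalization, normexp correction and no scaling; bars are 95% intervals of the first, not drawn for GCNT7, and dotted lines give the median of all tested probes under each. GCNT7 stands right of every dotted line of its own scaling, at 1.66, 1.74, 1.15 and 0.59.

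The wider set of glycan genes was followed through 7 lists of enzymes, sugar donors and glycan-binding proteins. Besides the 5 genes above, 30 were tested, and 0 were called higher and 0 lower by limma, against 2.97% of named genes called higher and 0.266% called lower. Unadjusted p was under 0.05 for 2 of them. Of the 30, each read by its brightest probe, 17 stood above 0. The median change of the 30 was 0.09, beside a median of 0.0034 over all named genes. GCNT7 was the only one of 25 listed genes of O-glycan initiation and branching that carried a gene name here. GCNT1 to GCNT4 and the GALNT genes were not analysed here.

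Sialyltransferases, which cap chains with sialic acid, and sialic acid supply were represented by 8 tested genes. On the brightest probe of each, 6 were positive and the median was 0.22. Other probes did not all follow. That of CMAH stood at -0.49, against 0.22 on the brightest. Of 3 other ST3GAL4 probes 1 was positive (range -0.35 to 0.33), against 0.35 on the brightest. The other probe of ST8SIA4 stood at 0.34, beside 0.22. ST3GAL3 stood at 0.40 ± 0.18 (SE, log2, limma adjusted p = 0.23) and ST3GAL1, which caps O-glycans, at 0.37 ± 0.19 (adjusted p = 0.30). Both other fucosyltransferases stood below 0: FUT8, which adds the core fucose of N-glycans, at -0.58 ± 0.29 (adjusted p = 0.29), and POFUT1, which fucosylates Notch, at -0.25 ± 0.19 (adjusted p = 0.51). In the blood-group list B3GALNT1, the globoside synthase, stood at 0.31 ± 0.35 (adjusted p = 0.67), with its other probe at -0.18. The value moved with the arrays used, to 0.98 without slides 3 and 4, 0.093 without OA 7 and 0.12 without sham 3.

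Among 5 tested enzymes of N-glycan branching and lactosamine chains, MGAT1 stood at -0.14 ± 0.24 and MGAT2 at 0.15 ± 0.29 (SE, log2, limma adjusted p = 0.79 and 0.81). The other probe of MGAT1 stood at 0.20, and the other 2 of MGAT2 lay between -0.30 and 0.06. All 3 sugar-donor genes were below 0 on their brightest probe. SLC35A3, a Golgi transporter of UDP-N-acetylglucosamine, the substrate of GCNT enzymes, stood at -0.31 ± 0.34 (limma adjusted p = 0.65). GFPT1, which starts hexosamine synthesis, stood at -0.13 ± 0.25 (adjusted p = 0.81). The other probe of SLC35A3 stood at -0.33. UGP2 stood at -0.07, but 3 of its 4 other tested probes were positive, in a range of -0.19 to 0.16. Of 11 tested galectins and selectins 7 were positive. LGALS3, a galectin that binds galactose ends, stood at 0.54 ± 0.24 (adjusted p = 0.24), with its other 6 probes between -0.06 and 0.45, and at 0.063 without slides 3 and 4. LGALS7 stood at -0.53 ± 0.28 (adjusted p = 0.31) and was well above background on 4 of 7 OA arrays.

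**Figure D4:**
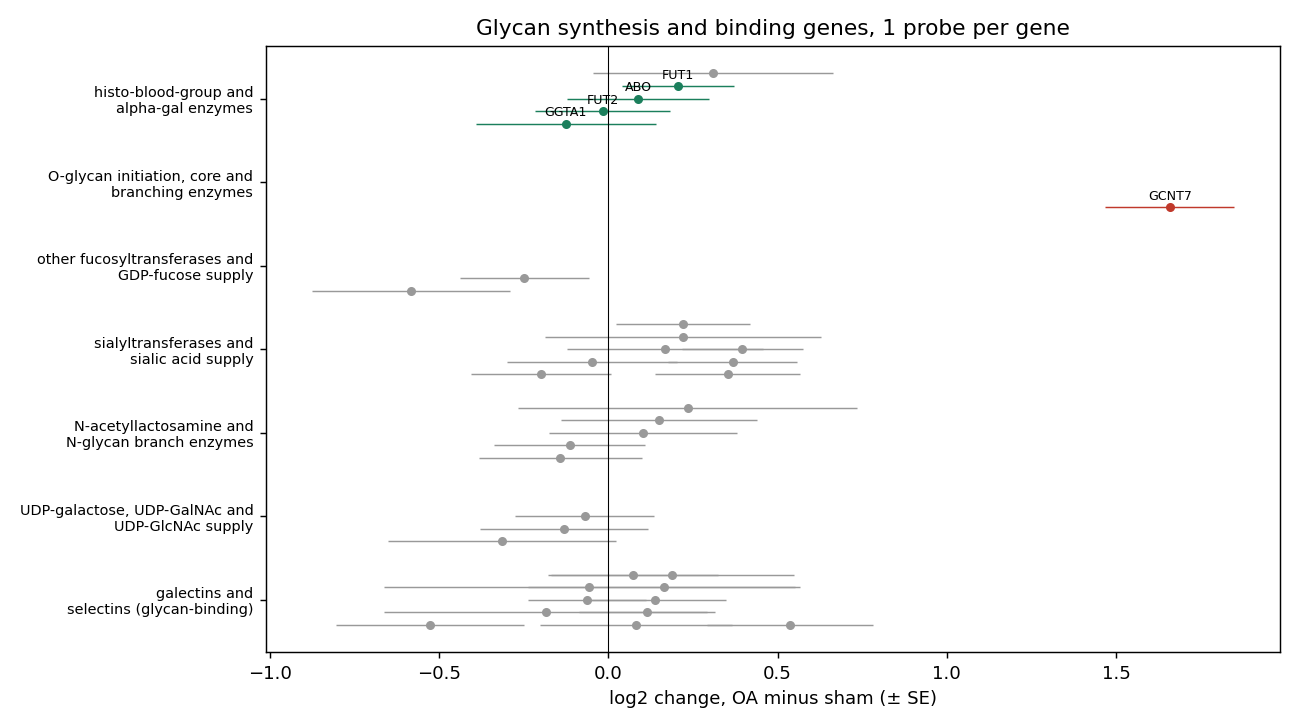
Log2 change, OA minus sham, with its SE, of the tested genes of the 7 glycan lists, 1 probe per gene; GCNT7 is red, the blood-group and alpha-gal genes described above are green and all others grey. GCNT7 stands at 1.66, and every other gene lies between -0.58 and 0.54.

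Over the 14 arrays, the 5 named genes most like GCNT7 in scaled level, of 2256 compared, were EPCAM, an epithelial adhesion protein (Pearson r of 0.94), CYP2C33, a cytochrome P450 (0.90), LIF, a cytokine (0.89), CTCFL, a germline paralogue of CTCF (0.87), and PNPLA3, a lipid droplet lipase (0.87). These correlations hold the difference between the groups. After subtraction of the group means they were 0.55 for EPCAM, 0.13 for CYP2C33, 0.14 for LIF, 0.37 for CTCFL and 0.05 for PNPLA3. All share arrays, slides and scaling with GCNT7. Each gene was read by its probe of highest mean signal, and other probes of these genes did not all follow it. On that probe the log2 change was 1.03 for CYP2C33 and 0.92 for PNPLA3. Most other tested CYP2C33 probes were lower in OA. Other tested probes of PNPLA3, and of EPCAM, were partly higher and partly lower in OA. LIF and CTCFL had 1 probe each.

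The genes beside GCNT7 on its chromosome were also read. Among the 10 entries on either side of it in the RefSeq gene table, a set chosen after seeing the data, 14 were tested and 1 was called, higher in OA, against 3.23% of named genes called in either direction. The next gene before it, RTFDC1, stood at 0.29 ± 0.20 and the next after it, FAM209B, at -0.016 ± 0.218 (SE, log2, limma adjusted p = 0.45 and 0.98). The 1 called gene was CTCFL, 10 entries away, at 0.71 ± 0.16 (adjusted p = 0.022); the call was lost with slide as a random block (adjusted p = 0.16) and without OA 2, sham 1 or sham 6. The other 13 lay between -0.66 and 0.51, with adjusted p from 0.20 to 0.98.

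Markers of other cells that dissected meniscus can hold were read beside these genes. Over all tested named genes 2.97% were called higher and 0.266% lower. Of 4 tested epithelial markers 2 were called higher in OA: CLDN4, a claudin, by 0.73 ± 0.18 and EPCAM by 0.50 ± 0.13 (SE, log2, limma adjusted p = 0.037 and 0.043). The other 15 EPCAM probes lay between -0.81 and 0.51, 8 of them positive. CDH1, another of the 4, stood at 0.25 ± 0.22 on its brighter probe and at 1.75 on the other (adjusted p = 0.55 and 0.062). The summed scaled level of these 4 markers was 0.07 to 0.57 in OA and -0.33 to 0.32 in sham, all 4 were well above background on every array, and they stood beside GCNT7 without a test of their part in it. Of 4 endothelial markers 1 stood above 0 and 0 were called, with a summed level of 3.99 to 5.42 in OA and 3.12 to 5.38 in sham. Of 2 red cell markers KLF1, an erythroid transcription factor, was called higher (1.18 ± 0.32, adjusted p = 0.047), the globin gene HBE1 was not, and the summed level was -2.21 to -1.32 in OA and -3.13 to -1.84 in sham. Of 5 tested adipocyte markers 3 stood above 0 and 1 was called, LEP, the hormone leptin, higher by 0.74 ± 0.16 (adjusted p = 0.021), with its other probe at -0.34. The summed level of the adipocyte list was 2.84 to 5.46 in OA and 2.66 to 4.33 in sham. Of 10 skeletal muscle markers 6 stood above 0 and 1 was called, TNNI1, a slow-fibre troponin, higher by 0.71 ± 0.18 (adjusted p = 0.041). The summed level of the muscle list was 3.05 to 4.41 in OA and 3.45 to 5.29 in sham. All 3 neutrophil markers stood above 0 and 0 were called, with S100A12 at 1.27 ± 0.37 (adjusted p = 0.065) and a summed level of -1.62 to 0.93 in OA and -2.21 to -1.31 in sham. Of 4 macrophage markers 3 stood above 0 and 0 were called, with a summed level of 5.11 to 5.96 in OA and 3.78 to 6.11 in sham.

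These 5 marker calls were lost with slide as a random block, at an adjusted p of 0.28 for CLDN4, 0.22 for EPCAM, 0.20 for KLF1, 0.17 for LEP and 0.21 for TNNI1. Leaving out 1 array ended the call of CLDN4 in 9 of 14 cases, that of EPCAM in 13, that of KLF1 in 12, that of TNNI1 in 11 and that of LEP in 0. The part of any of these markers in the GCNT7 or blood-group values was not tested.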

How the data were processed

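Meniscus RNA of 14 pigs was measured on 1 array each. Per the file headers, the scanner software Feature Extraction 11.0.1.1 made the spot intensity, with background subtraction and spatial detrending on each array. No scaling between arrays had been applied to the deposited intensity. The authors' series table holds log2 values with a median of 6.00 over non-control probes in every column, rank-ordered as the scanner signal (Spearman rho 0.994 to 1.00 over probes); its normalization was not given in the sources used here, and it served as an alternative.

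From the processed intensity, log2 values were taken, spots marked as outliers were left out (none belonged to the 9 probes of GCNT7, ABO, FUT1, FUT2 and GGTA1), spots of one probe were averaged, and the 75th percentile of each array's non-control probes was subtracted. A probe was tested where 7 or more of the 14 arrays rated it well above background, which held for 38818 of 43603. The test was lmFit with eBayes from limma 3.58.1 under R 4.3.3 (two-sided, both groups in one fit, Benjamini-Hochberg over all tested probes, threshold 0.05). It was also run on simulated arrays with independent noise, which held no slide, scan day or brightness difference. RefSeq accessions were matched without version to the Sscrofa11.1 gene table: 5461 of 5779 matched, giving 2389 genes, and 2258 were tested, each by its probe of highest mean signal. The sources used here name no build for the array design, so no coordinates are printed, and no probe or gene sequence was used; whether a probe also binds the related copies of the FUT genes was not checked. Genes named from the lists were those past the threshold, or, in a glycan list where none passed, the 2 of smallest p. CES1, CDH1, C7H6orf15, HBE1, S100A12, UGP2, CMAH, ST3GAL4 and ST8SIA4 were named after their values were seen. The members and lists were chosen with earlier results of these data known. Array measures were compared with exact permutation tests that treated arrays as exchangeable, adjusted over 2 measures. The number of arrays limits the precision. Alternatives were median scaling, quantile normalization, normexp with an offset of 50 (on the median spot signal, since the files used hold no mean signal), the authors' table, no brightness filter, a filter requiring all 14 arrays, outlier spots left in, trended and robust variances, a random block for slide or for scan day, a block for replicate number, each array left out, and 3 added after seeing the data.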

Additional observations from a re-analysis of the deposited data

Results flagged for a closer look

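An array far from the others of its group was looked for in 22 groups of 7 arrays, where chance gives about 1 in 20. FUT1 probe 1 had 1 such array in each group: OA 2 stood above the other OA arrays at a scaled level of 2.28, and sham 2 below the other sham arrays at 1.06. The share of probes well above background on sham 4, 95.2%, lay above that of the other sham arrays.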

How the results depend on the processing

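Of the 28 alternatives, GCNT7 moved by more than the pooled SD of both groups (0.33) under normexp (1.15) and with no scaling (0.59); without 1 array it was 1.58 to 1.78. ABO turned negative under normexp (-0.027) and with no scaling (-0.98), as did FUT1 probe 1 (-0.036 and -0.87). FUT1 probe 2 was 0.010 after quantile normalization, 0.71 under normexp and -1.18 with no scaling. FUT2 probe 1 was 0.029 after quantile normalization, 0.56 under normexp, 0.028 in the authors' table, 0.054 and 0.0010 with slide and scan day as random blocks, -1.09 with no scaling, 0.19 with brightness as a covariate and 0.29 without slides 3 and 4. GGTA1 probe 1 was -1.20 with no scaling, and probe 2 was -1.29 with no scaling and 0.071 with brightness as a covariate. Without 1 array the ranges were -0.023 to 0.19 for ABO, 0.11 to 0.25 and -0.21 to 0.094 for the FUT1 probes, -0.078 to 0.077 for FUT2, and -0.28 to 0.078 and -0.40 to -0.069 for the GGTA1 probes, none past the threshold; FUT2 changed sign in 6 of these 14 cases. The cause of these shifts was not tested.

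The 1120 probes called higher and 329 lower became 1385 and 784 with median scaling, 1568 and 674 with quantile normalization, 17596 and 776 under normexp, 2076 and 475 with no filter, 1122 and 69 with the filter on all arrays, 1509 and 747 in the authors' table, 18 and 0 with slide and 143 and 5 with scan day as a random block, 9 and 31461 with no scaling, 3 and 1 with brightness as a covariate, and 156 and 39 without slides 3 and 4. Without 1 array they ran from 598 to 1307 and from 87 to 1403. Lower calls exceeded higher calls without OA 1. Replicate numbers are shared by the groups but do not pair the animals (correlations of -0.19 to 0.27 between same-numbered arrays, 1 of 7 OA arrays closest to its own number); with the replicate number as a block 295 probes were called higher and 40 lower, and no blood-group or alpha-gal probe changed its call. The called genes CLDN4, EPCAM, KLF1, CTCFL, LEP and TNNI1 lost their calls with the replicate block too (adjusted p of 0.069, 0.15, 0.090, 0.095, 0.081 and 0.12) and with slides 3 and 4 left out. With no scaling B3GALNT1 stood at -0.76, ST3GAL3 at -0.68, ST3GAL1 at -0.71, MGAT2 at -0.92, LGALS3 at -0.54, CLDN4 at -0.34, EPCAM at -0.58, CTCFL at -0.36, LEP at -0.34, TNNI1 at -0.36 and RTFDC1 at -0.79. Under normexp SLC35A3 stood at 0.020, LGALS7 at 0.57, GFPT1 at 0.060, ST3GAL3 at 0.75, ST3GAL1 at 0.78 and FAM209B at 0.034. With brightness as a covariate B3GALNT1 stood at 1.13, and without 1 array it was 0.093 to 0.48. MGAT2 was -0.090 with brightness as a covariate, -0.17 without slides 3 and 4 and -0.079 to 0.30 without 1 array, and FAM209B was -0.21 to 0.050 without 1 array.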
